A study of Mus musculus with 14 samples.

Results

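Natural killer (NK) cells act on other cells by killing them and by secreting signals, and 5 genes of that secreted output are described here: the chemokines Ccl3, Ccl4, Ccl5 and Xcl1 and the cytokine Ifng. They were taken by name from the table of raw counts of the NK libraries. No threshold on their values was used, but earlier results of these data were known when they were chosen. All 5 were among the 10210 genes listed there and among the 8471 that passed the filter on low counts. Ccl3, Ccl4 and Ccl5 were also among the 12235 genes of a second table, which holds sCAF libraries, and Xcl1 and Ifng were not listed there.

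The study asked what state NK cells are in inside a mouse breast tumour, and read their polyA RNA at the 3′ end in bulk. The groups were NK cells of healthy BALB/c spleens (3 libraries), of spleens of BALB/c females with a 4T1 tumour (4 libraries) and of such tumours (4 libraries), with sCAFs, a kind of cancer-associated fibroblast, of such tumours as a further set (3 libraries). Mice were 8 weeks old per the labels, and the tumour-bearing females had received 100000 4T1-GFP cells in the lower left mammary fat pad. 4T1 is an established mouse mammary carcinoma line grown in its strain of origin, here as 1 line carrying green fluorescent protein, so every tumour in the series is of that line. The labels call the libraries independent replicates but do not say whether each is 1 mouse or a pool, nor how long tumours grew, nor whether tumours and spleens came from the same mice, so the p-values measure the spread between these libraries. NK cells were enriched magnetically and sorted as NKp46 and CD45 positive and as negative for GFP, EPCAM, CD3, CD31 and CD14. Tumours were digested with collagenase and DNase for 20 min at 37 °C and spleens were crushed and kept on ice for a 5 min red cell lysis, so tissue and handling cannot be told apart in any comparison with tumour NK cells.

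Ccl3, Ccl4 and Ccl5 are small secreted proteins that attract T cells, monocytes and other leukocytes. Xcl1 is the ligand of XCR1, a receptor found mainly on cross-presenting dendritic cells, and NK cells in tumours are known as a source of both Xcl1 and Ccl5. Ifng encodes interferon gamma, which acts through its receptor and the kinases JAK1 and JAK2 to raise antigen presentation and the chemokines that draw T cells. Many NK cells hold stored transcripts of these genes before they are stimulated, and the decay of such transcripts through AU-rich elements in their 3′ untranslated regions is a known point of control.

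The chemokine genes Ccl5, Ccl3 and Ccl4 are neighbours on mouse chromosome 11, whereas Xcl1 and Ifng stand elsewhere. In the GENCODE M21 annotation of GRCm38, the assembly that mm10 also names, Ccl5 lies at chr11:83525778-83530518 on the minus strand, Ccl3 at chr11:83647844-83649355 on the minus strand and Ccl4 at chr11:83662584-83664683 on the plus strand. Between Ccl3 and Ccl4 lie 13228 bases, and between Ccl5 and Ccl3 117325 bases. The stretch from Ccl5 to Ccl4 holds 6 protein-coding genes, the others being Ccl9, Ccl6 and Rpl9-ps1. Xcl1 lies at chr1:164931644-164935527 on the minus strand and Ifng at chr10:118441046-118445892 on the plus strand. Ccl3, Ccl4, Ccl5 and Xcl1 have 3 exons each and Ifng has 4. The longest stretch of bases shared by any pair of the 5 transcripts was 13, and by Ccl3 and Ccl4 it was 9.

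The transcript ends differ in their AU-rich letters, which are shown because these libraries count transcripts at that end. Factors of mRNA decay, not all of them readers of such letters, are also compared below. The search was for ATTTA and for the longer TATTTAT, which contains it, on the transcript strand of the 3′ untranslated region. Ifng held 6 copies of ATTTA, of which 4 lay in TATTTAT. Ccl3 held 5 copies, Ccl4 held 2 and Xcl1 held 1, and in each of these 3 genes TATTTAT occurred 1 time. Ccl5 held neither. Of 8148 tested genes with a coding transcript, 67.8% held at least 1 ATTTA and 28.5% at least 1 TATTTAT. The median gene held 1.24 ATTTA per kb, against 12.2 for Ccl3, 9.51 for Ifng, 7.09 for Xcl1 and 6.62 for Ccl4. These regions are short, at 409, 631, 141 and 302 bases in that order, against a median of 1049. At least as many copies were held by 20.2% of these genes for Ccl3, 15.7% for Ifng, 67.8% for Xcl1 and 48% for Ccl4. A window of 29 bases from the last exon of each of the 4 genes is printed 5′ to 3′ on the gene's strand, with TATTTAT in capitals.
Ccl3, chr11:83648014-83648042, minus strand: ttgtcatacttgtatttgtgacTATTTAT
Ccl4, chr11:83664531-83664559, plus strand: tttgggggagtattatttctatTATTTAT
Xcl1, chr1:164931653-164931681, minus strand: ttcaaatgttataagtaataaaTATTTAT
Ifng, chr10:118445332-118445360, plus strand: ccTATTTATtaatatttaaaacTATTTAT
A match is a description of the letters, and no binding or decay was measured.

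Ccl3, Xcl1 and Ifng, 3 of the genes that rose together in tumour-bearing spleens, had an entry in the RefSeq promoter table for GRCm38.p6. The 250 bases before each RefSeq start site are printed on the gene's strand, with motif matches in capitals.
Ccl3, chr11:83649379-83649628, minus strand: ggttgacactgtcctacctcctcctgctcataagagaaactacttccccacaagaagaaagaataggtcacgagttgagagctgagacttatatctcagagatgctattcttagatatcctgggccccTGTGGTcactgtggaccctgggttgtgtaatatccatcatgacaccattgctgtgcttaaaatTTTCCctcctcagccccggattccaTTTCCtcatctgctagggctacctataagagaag
Xcl1, chr1:164935523-164935772, minus strand: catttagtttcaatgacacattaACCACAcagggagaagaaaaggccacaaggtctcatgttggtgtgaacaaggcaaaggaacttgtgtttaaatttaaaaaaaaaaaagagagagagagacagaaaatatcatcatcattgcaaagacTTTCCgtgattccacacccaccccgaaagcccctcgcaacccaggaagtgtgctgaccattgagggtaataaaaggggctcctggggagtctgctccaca
Ifng, chr10:118440796-118441045, plus strand: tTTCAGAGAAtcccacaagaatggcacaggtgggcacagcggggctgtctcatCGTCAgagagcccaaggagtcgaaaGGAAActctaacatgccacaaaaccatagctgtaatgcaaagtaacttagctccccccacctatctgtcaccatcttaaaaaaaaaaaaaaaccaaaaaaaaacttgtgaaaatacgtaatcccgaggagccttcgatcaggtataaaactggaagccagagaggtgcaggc
Both strands were searched for 6 motifs, and the matches did not overlap one another. GGAAA, the core read by NFAT factors, or its reverse complement occurred 2 times before Ccl3, at offsets -59 and -34, and 1 time each before Xcl1, at -100, and Ifng, at -172. Of the 32851 RefSeq promoters of this length, 55.6% held it. TGTGGT, read by Runt factors, occurred 1 time each before Ccl3 and Xcl1 and was held by 14% of promoters. Before Ifng there was 1 TGACG, a CREB-type motif held by 17.8% of promoters, and 1 TTCNNNGAA, a STAT-type site held by 7.02%. The T-box motif AGGTGT, held by 11.8% of promoters, and the AP-1 site TGANTCA, held by 6.75%, were in none of the 3 windows.

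Totals ran from 559688 to 1966963 counts over the NK libraries, and levels are given in CPM, a gene's counts scaled to a common library total after TMM scaling. Reads come from the 3′ end, and no transcript length enters the CPM. Tests compare a gene's CPM between groups, and ranks, shares and sums over genes only describe counts. The fewest counts of a member in any NK library were 72, for Ifng in healthy spleen replicate 1, which was also the library with the lowest total. That library stood apart from the other spleens on the second principal component of all genes (47.6, against 13.24 or less). Of the NK markers, 11 of 12 were listed. Ncr1, which encodes the NKp46 used in the sort, was at 1332 to 1806 CPM in healthy spleens and 929 to 1678 in tumour-bearing spleens. In tumours it was lower, at 717 to 915 CPM, without overlap with the spleens.

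Of the 5 genes, 4 were higher in NK cells of tumour-bearing spleens than in those of healthy spleens, and in the tumour their levels parted ways. Xcl1 was highest in the tumour, Ccl3 overlapped there with the healthy spleens, Ccl4 and Ifng overlapped with the tumour-bearing spleens, and Ccl5, not called between the spleens, was lowest in the tumour. Between tumour-bearing and healthy spleens, 4 of 5 members were called higher and 0 lower at an adjusted p under 0.05 in edgeR's quasi-likelihood test, where 1.58% of all 8471 genes were called, 1.23% higher and 0.354% lower. Between tumour and tumour-bearing spleen, 1 was called higher and 2 lower, where 29% of genes were called, 15.8% higher and 13.2% lower. Between tumour and healthy spleen, 3 were called higher and 1 lower, where 30.5% of genes were called, 16.5% higher and 14% lower. In the spleen comparison Ccl4 stood at rank 2 by p among all 8471 genes, Ccl3 at rank 10, Xcl1 at rank 18 and Ifng at rank 29. The comparisons share groups and are not independent of each other. In the spleen comparison 134 genes were called in all, and 42 without healthy replicate 2 and 67 without healthy replicate 3. With either library left out the same 4 members were called. When libraries were scaled by their totals alone, the median of all genes shifted by -0.12 between tumour and tumour-bearing spleen and by -0.18 between tumour and healthy spleen, and higher genes made up 37.7% and 32.8% of the calls instead of 54.5% and 54.2%, or 41.6% and 42.4% with upper-quartile scaling. Between the spleens their share went from 77.6% to 65.9% on totals. The members' calls and their directions were the same under each scaling.

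**Figure D1:**
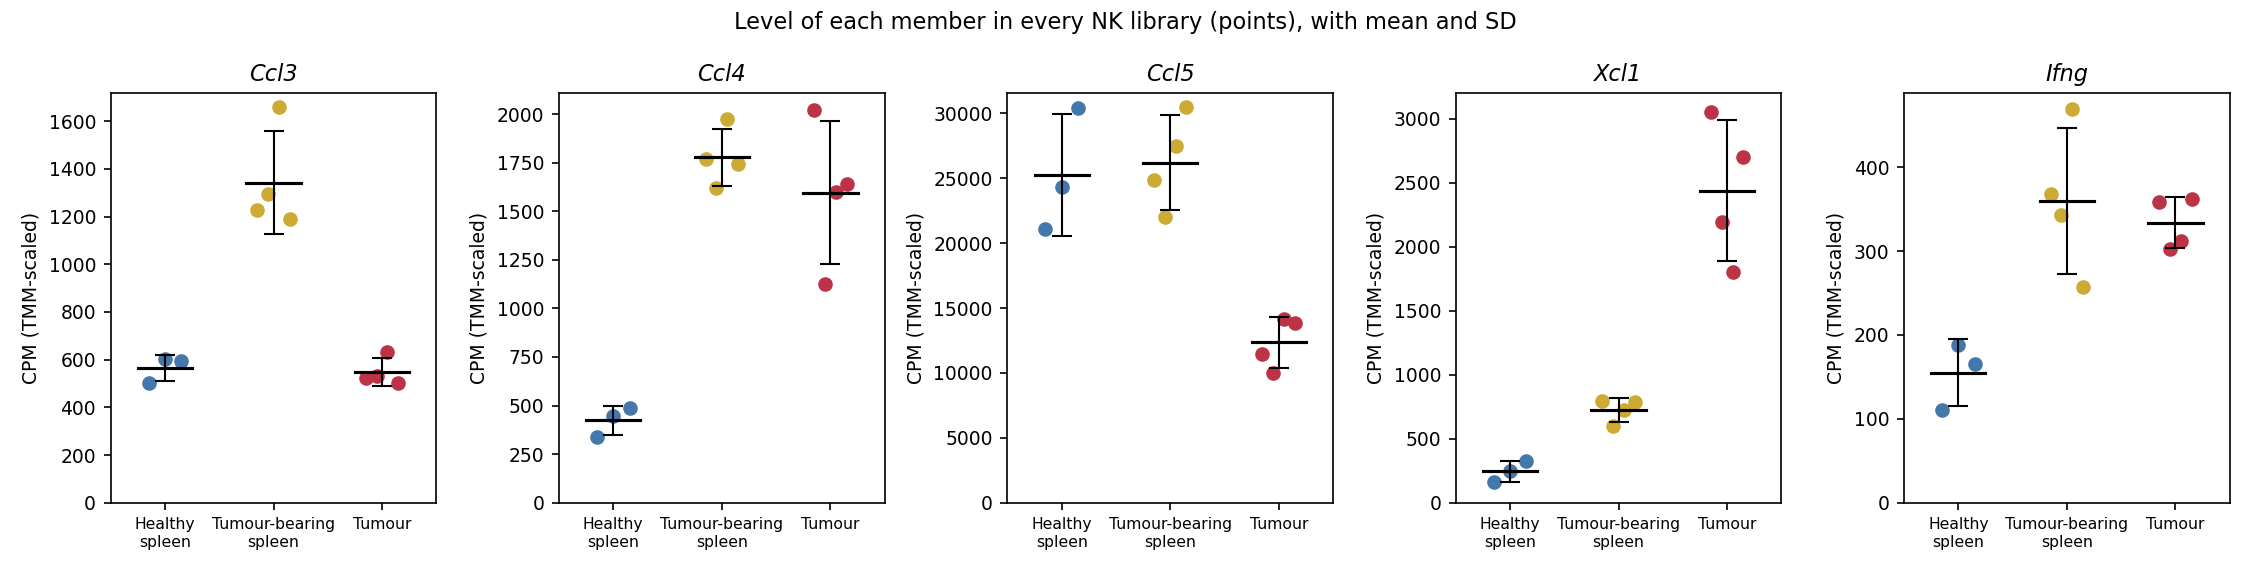
Level of each gene in CPM (linear axis from 0) in every NK library, with 1 point per library, a line at the group mean and bars of 1 SD. Points of Ccl3, Ccl4, Xcl1 and Ifng lie higher in tumour-bearing than in healthy spleens without overlap, and those of Ccl5 lie lowest in the tumour.

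Xcl1, the ligand of XCR1, rose in steps from healthy spleen to tumour-bearing spleen to tumour. It was at 163.3, 249.3 and 328.5 CPM in healthy spleen replicates 1 to 3, at 798.0, 596.1, 721.1 and 788.3 CPM in tumour-bearing spleen replicates 1 to 4, and at 3051.2, 2193.9, 1803.8 and 2696.4 CPM in tumour replicates 1 to 4. No library of one group reached into the range of another. The log2 difference between tumour and tumour-bearing spleen was 1.75 ± 0.20 (SE; 95% interval 1.33 to 2.16), or 3.36-fold, with an adjusted p of 1.84e-06 in edgeR's quasi-likelihood test. Against healthy spleen it was 3.29 ± 0.24, or 9.77-fold (adjusted p = 6.04e-09, edgeR). Between the spleens it was 1.54 ± 0.22, or 2.91-fold (adjusted p = 0.000725, edgeR). Within the tumour the libraries spread over a coefficient of variation of 22.5%.

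Cells other than NK cells can also carry Xcl1 or pass an NKp46 sort, and group 1 innate lymphoid cells of tissues (ILC1) are of that kind. The 4 of 6 ILC1 and tissue-residency markers listed (Cxcr6, Itga1, Il7r and Tnfsf10) summed to 211.1 to 245.9 CPM in tumour libraries, 26.8 to 101.4 in tumour-bearing spleens and 36.9 to 97.1 in healthy spleens. Itga1 was at 3.61 to 8.69 CPM in tumours and at 1.52 or less in spleens, with 0 in some spleen libraries. Eomes, which conventional NK cells express, was at 551 to 676 CPM in the tumour, inside its range of 411 to 807 in healthy spleens. In tumour-bearing spleens it was at 315 to 572 CPM, a range that the tumours overlapped at its upper end. Of the 3 markers tested, Cxcr6 rose by 2.70 and Tnfsf10 by 2.42 against tumour-bearing spleens, and Il7r was not called. Il7r was at 60.9 to 112 CPM in tumours, 12.35 to 58.69 in tumour-bearing spleens and 22.47 to 75.5 in healthy spleens. Their part in the level of Xcl1 was not tested. In bulk libraries a larger share of cells of one type and more RNA per cell cannot be told apart.

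Ccl3, a chemokine that attracts monocytes and T cells, was highest in the spleens of tumour-bearing mice. Its level was 503.9, 601.4 and 593.4 CPM in the healthy spleens, 1225.6, 1294.4, 1657.4 and 1189.7 CPM in the tumour-bearing spleens and 524.6, 533.3, 633.1 and 501.1 CPM in the tumours. Every tumour-bearing spleen lay above every other library, and the tumour and healthy ranges overlapped. Ccl3 rose by 1.24 ± 0.16 on the log2 scale between the spleens (2.37-fold; adjusted p = 0.000206, edgeR) and fell by 1.29 ± 0.15 between tumour-bearing spleen and tumour (2.45-fold lower; adjusted p = 1.35e-06, edgeR). The log2 difference between tumour and healthy spleen was -0.05, with a 95% interval from -0.38 to 0.28 (adjusted p = 0.842, edgeR), and it was 0.12 when healthy replicate 1 alone stood for the healthy spleens.

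Ccl4, the other macrophage inflammatory protein of the pair, was high in both groups from tumour-bearing mice. It was at 339.0, 447.8 and 485.3 CPM in healthy spleens, at 1768.4, 1621.5, 1977.0 and 1741.6 CPM in tumour-bearing spleens and at 2021.5, 1123.0, 1597.0 and 1638.2 CPM in tumours. The highest and the lowest of the last 8 libraries were both tumours, and all 8 were above the healthy spleens. The rise between the spleens was 2.06 ± 0.20 on the log2 scale, or 4.17-fold (adjusted p = 8.98e-06, edgeR), the largest fold change of the 5 members in that comparison. Tumour against healthy spleen gave 1.91 ± 0.20, or 3.75-fold (adjusted p = 4.15e-07, edgeR). Tumour against tumour-bearing spleen gave -0.15, with a 95% interval from -0.51 to 0.20 (adjusted p = 0.528, edgeR), which does not show that the levels are equal.

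Ccl3 and Ccl4, which lie next to each other, were also compared by the ratio of their counts within a library, which no scaling affects. Ccl4 counts per Ccl3 count were 0.673 to 0.818 in healthy spleens, 1.19 to 1.46 in tumour-bearing spleens and 2.11 to 3.85 in tumours. The mean ratio was 0.745 ± 0.073 (SD, n = 3), 1.34 ± 0.14 (SD, n = 4) and 2.94 ± 0.78 (SD, n = 4) in that order, and the groups did not overlap. Since both genes are counted at their own 3′ ends, the change of the ratio between groups can be read, and its size in 1 group cannot.

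Ccl5, a T cell attractant that resting NK cells already transcribe, was one of the most heavily counted genes of all. Its counts were 21063.3, 24324.0 and 30381.5 CPM in healthy spleens, 24852.2, 21984.6, 27487.9 and 30503.5 CPM in tumour-bearing spleens and 11498.0, 10003.0, 14128.5 and 13821.3 CPM in tumours. The 2 spleen groups overlapped over most of their range, and every tumour was below every spleen. Ccl5 took 2.68 ± 0.32% (SD, n = 3) of all counts in healthy spleens, 2.63 ± 0.26% (SD, n = 4) in tumour-bearing spleens and 1.14 ± 0.15% (SD, n = 4) in tumours, and stood at rank 1, 1 and 2 by mean CPM. It fell by 1.08 ± 0.18 on the log2 scale from tumour-bearing spleen to tumour (2.12-fold lower; adjusted p = 0.000142, edgeR) and by 1.03 ± 0.19 from healthy spleen to tumour (2.04-fold lower; adjusted p = 0.000413, edgeR). Between the spleens the log2 difference was 0.05, with a 95% interval from -0.35 to 0.46 (adjusted p = 0.97, edgeR), and its sign turned under several other settings.

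Because of Ccl5, the 5 genes together took a smaller share of all counts in the tumour. The share was 2.83 ± 0.33% (SD, n = 3) in healthy spleens, 3.06 ± 0.26% (SD, n = 4) in tumour-bearing spleens and 1.6 ± 0.16% (SD, n = 4) in tumours. Without Ccl5 the other 4 took 0.148 ± 0.016%, 0.424 ± 0.039% and 0.456 ± 0.074%. The libraries from tumour-bearing mice, at 0.384% or more, were above the healthy spleens, at 0.157% or less, and the tumours and tumour-bearing spleens overlapped.

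Ifng was higher in both groups from tumour-bearing mice than in healthy spleens. Its level was 110.9, 188.3 and 165.9 CPM in healthy spleens, 368.2, 343.3, 469.9 and 257.5 CPM in tumour-bearing spleens and 359.1, 302.9, 312.1 and 362.2 CPM in tumours. The tumours lay inside the range of the tumour-bearing spleens, and all 8 of these libraries lay above the healthy ones. The rise between the spleens was 1.19 ± 0.20 on the log2 scale, or 2.28-fold (adjusted p = 0.00234, edgeR), and that between healthy spleen and tumour was 1.08 ± 0.20, or 2.12-fold (adjusted p = 0.000333, edgeR). Tumour against tumour-bearing spleen gave -0.11, with a 95% interval from -0.47 to 0.26 (adjusted p = 0.681, edgeR), and 0.05 without tumour-bearing spleen replicate 3. The coefficient of variation was 24.3% in tumour-bearing spleens and 9.27% in tumours.

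**Figure D2:**
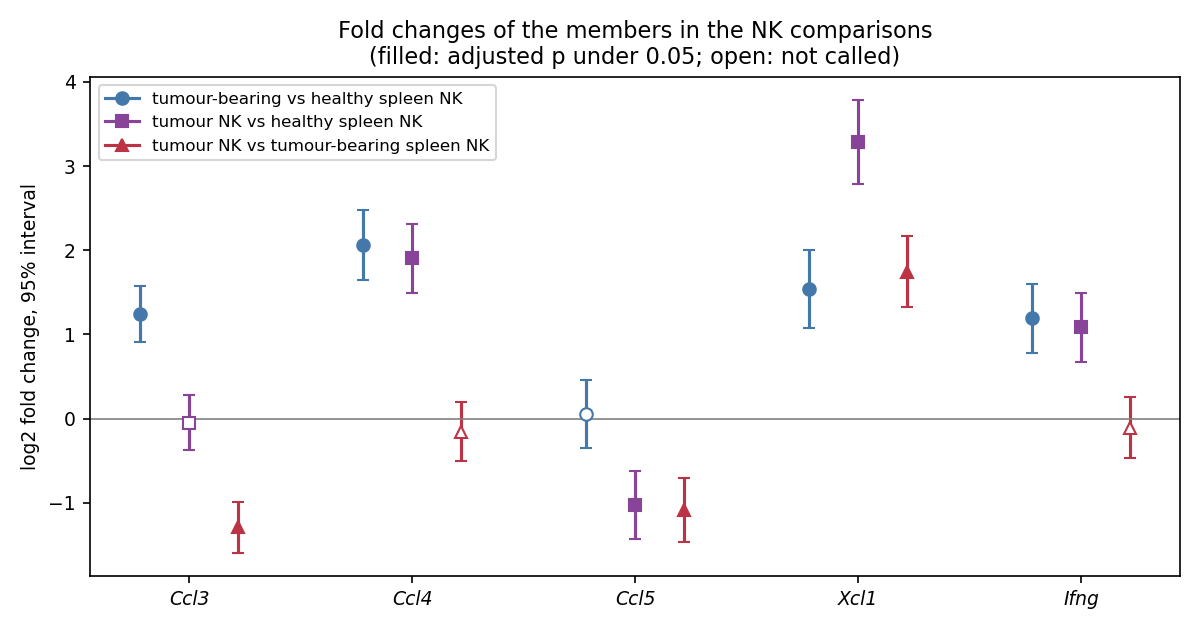
Log2 fold change of each gene (vertical axis) with its 95% interval in each of the 3 comparisons of NK groups, filled where the adjusted p was under 0.05. Xcl1 lies above 0 in all 3 comparisons, Ccl5 lies below 0 in both comparisons with the tumour, and Ccl3 changes sides between the spleen comparison and the tumour against tumour-bearing spleen.

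Groups that did not overlap in CPM numbered 4 of 5 members between the spleens (12.2% of all genes), 3 of 5 between tumour and tumour-bearing spleen (29.7%) and 4 of 5 between tumour and healthy spleen (34.8%). The median log2 fold change of the 5 members was 1.24 between the spleens, -0.15 between tumour and tumour-bearing spleen and 1.08 between tumour and healthy spleen. Over all genes tested it was 0.00 (-0.0042), 0.00 (0.0014) and 0.02. Without healthy replicate 1 the log2 differences between the spleens were 1.93 for Ccl4, 1.33 for Xcl1, 1.17 for Ccl3 and 1.02 for Ifng, and all 4 stayed called.

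Ratios to Ccl3 and to Ccl5 set the members apart further. Xcl1 counts per Ccl3 count were 0.324 to 0.554 in healthy spleens and 0.435 to 0.663 in tumour-bearing spleens, which overlap, and 2.85 to 5.82 in tumours. Ccl5 counts per Xcl1 count were 92.5 to 129 in healthy spleens, 31.1 to 38.7 in tumour-bearing spleens and 3.77 to 7.83 in tumours, with no overlap between any pair of groups. Ifng counts per Ccl4 count were 0.327 to 0.421 in healthy spleens, and were lower in tumour-bearing spleens at 0.148 to 0.238 and in tumours at 0.178 to 0.27. For that ratio the tumours and the tumour-bearing spleens overlapped.

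**Figure D3:**
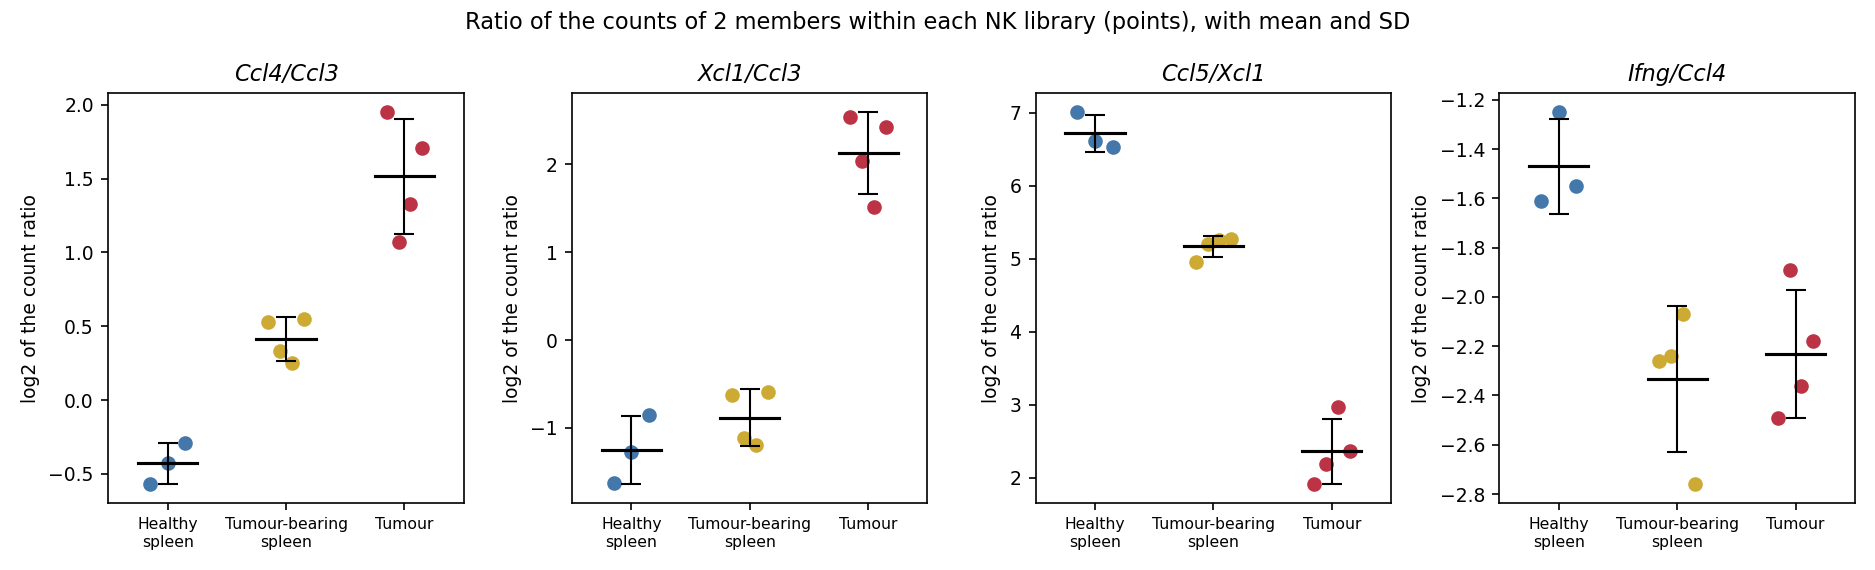
Log2 of the ratio of the counts of 2 genes in each NK library (1 point per library, line at the mean, bars of 1 SD). Ccl4/Ccl3 and Ccl5/Xcl1 separate all 3 groups, Xcl1/Ccl3 separates the tumours, and Ifng/Ccl4 separates the healthy spleens.

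Over the 11 NK libraries the profiles of log2(CPM + 1), each centred on its own mean, were compared by their root mean square difference, where 0 is the same profile. Among the members the nearest pair was Ccl4 and Ifng, at 0.427, and the farthest was Ccl5 and Xcl1, at 1.8. Among 8258 other genes, the nearest to Xcl1 were Kit (0.31), H2-Eb1 (0.311) and Tnfrsf9 (0.323), which encode a receptor for stem cell factor, a class II antigen presentation chain and the costimulatory receptor 4-1BB. Kit was at 14, 33.2 and 122 CPM in healthy spleen, tumour-bearing spleen and tumour. The nearest to Ccl3 were Stip1 (0.218), a co-chaperone, Dusp22 (0.243) and Psmc3ip (0.264). Stip1 was at 159, 328 and 170 CPM in the same order of groups.

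Nearest to Ccl4 were Ccnf (0.329), Ugt1a6b (0.36) and Cd300lf (0.404), and nearest to Ifng were Plin3 (0.243), the cytokine gene Osm (0.247) and the chaperone gene Hsp90ab1 (0.253). Hsp90ab1 was at 420, 959 and 888 CPM in the same order of groups. Ccnf, at 2.13 CPM in healthy spleens, and Plin3, at 4.28 CPM, rested on few counts there. Ccl5 had the nearest neighbours of all 5, Rdm1 (0.112), Tut1 (0.124) and Hes6 (0.128), and Rdm1 was at 116, 124 and 60.6 CPM. The median difference from the other genes ranged from 0.641 for Ccl5 to 1.39 for Xcl1. These are descriptions over 11 libraries that share groups and depth.

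Of the genes through which the 5 proteins act, 6 of 11 were listed in the NK table and 5 were tested. In tumour NK cells 4 were called higher and 0 lower against tumour-bearing spleens, and 4 and 0 against healthy spleens, where the number fell to 1 when healthy replicate 1 alone stood for them. Ifngr1, a chain of the interferon gamma receptor, was at 722 CPM in the tumour and 288 in tumour-bearing spleens (log2 1.33 ± 0.15, adjusted p = 1.88e-06, edgeR). Jak2, a kinase of that receptor, rose by 1.00. Jak1 was not called (0.22, adjusted p = 0.299, edgeR). Between the spleens 0 of 5 were called by edgeR and 0 by DESeq2, with 1 at an unadjusted p under 0.05. With the side of 0 on the second principal component as a term, edgeR called 1 higher and 1 lower. That alternative was chosen after seeing the data, and it called 733 genes in all. The list's median log2 fold change was 0.83 against tumour-bearing spleens and -0.06 between the spleens.

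Of 33 other cytokine and chemokine genes that NK cells can express, 18 were listed in the NK table and 10 were tested. In the tumour 9 of the 10 were called higher and 0 lower, against either spleen group. Ccl1, Ccl9, Cxcl2 and Cxcl10 were at 7.62 CPM or less in every spleen library, so they passed the filter chiefly through the tumours. Genes so low in spleens could hardly be called lower in the tumour, so the count of 0 was partly fixed in advance. Cxcl10, an interferon-induced chemokine, was at 148 CPM in tumours and 4.91 in tumour-bearing spleens (log2 4.93 ± 0.29, adjusted p = 5.36e-10, edgeR). The tumour-bearing spleens lay at 1.54 to 7.62 CPM, so the fitted size rests on few counts there. Lta rose by 2.43, and the 5 called genes with smaller changes by 0.85 to 2.14. Cxcl2 was at 17.1 to 50.7 CPM in tumours and at 1.67 or less in tumour-bearing spleens, and Ccl1 at 4.81 to 31.4 and at 3.62 or less, so their fitted fold changes depend on counts near 0. Between the spleens 0 of these 10 were called by edgeR and 0 by DESeq2, with 2 at an unadjusted p under 0.05. Although not called, Tnf and Ccl9 were higher in tumour-bearing than in healthy spleens without overlap. Tnf was at 15.19 to 34.3 CPM against 9.9 to 13.87 (log2 0.85), and Ccl9 at 2.29 to 6.69 against 1.07 or less (2.87). Ltb (-0.12), Flt3l (-0.18) and Cxcl2 (-0.75) went the other way. List genes near a count of 0 in the spleens could hardly be called there. With the side of 0 on the second principal component as a term, 1 of the 10 was called higher.

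Genes known to induce Ifng in NK cells, as cytokine receptors or transcription factors, were mixed. Of 25 tested, 8 were called higher and 3 lower in the tumour against tumour-bearing spleens. Between the spleens 0 were called by edgeR and 1 higher and 1 lower by DESeq2, with 5 at an unadjusted p under 0.05. With the side of 0 on the second principal component as a term, edgeR called 2 higher and 4 lower there. Rel, an NF-kappaB subunit, rose by 2.51 ± 0.23 and Bhlhe40, a factor that sustains Ifng, by 2.47 ± 0.17, from 164 to 912 CPM. Il21r rose by 1.13 and Nfatc1 by 0.71. Tyk2, a kinase of the interleukin-12 receptor, fell by 0.94, Tbx21, which encodes T-bet, by 0.50 and Id2 by 0.43. Against healthy spleens 8 were higher and 3 lower, with Il12rb1 among the higher (1.06) and Il18rap (-0.67) and Zeb2 (-1.54) among the lower. The median of the list there was 0.16, and -0.05 when libraries were scaled by their totals alone. Ifng itself was not called between tumour and tumour-bearing spleen.

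Factors that bind AU-rich transcripts or promote their decay were called higher in the tumour in 7 of 13 tested and lower in 0 against tumour-bearing spleens, and in 6 and 0 against healthy spleens. Btg1, a partner of the deadenylase, rose by 2.78, Zc3h12a, which encodes the nuclease Regnase, by 2.73, Zfp36l1 by 1.94 and Zfp36l2 by 1.48. Zc3h12a went from 62.5 to 417 CPM. Zfp36, which encodes tristetraprolin and was picked out after its values were seen, went from 168 to 367 CPM (log2 1.12 ± 0.16, adjusted p = 1.66e-05, edgeR). Between the spleens 0 of 13 were called by edgeR and 0 by DESeq2, with 1 at an unadjusted p under 0.05. Of the members printed above with TATTTAT, Xcl1 was higher, Ccl3 was lower and Ccl4 and Ifng were not called in the tumour against tumour-bearing spleens, and Ccl5, without the letters, was lower.

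Genes that respond to interferon gamma were called higher in the tumour in 16 of 27 tested and lower in 0 against tumour-bearing spleens, and in 14 and 1 against healthy spleens. Besides Cxcl10, Cd274, which encodes PD-L1, rose by 2.88 ± 0.26, from 13.8 to 103 CPM, and Gbp3, a guanylate-binding protein, by 1.44. Iigp1 was at 18.5 CPM on average in tumours and 0.908 in tumour-bearing spleens, near a count of 0. Such a gene could hardly be called lower in the tumour. Ifi47 fell by 0.40 against healthy spleens. Cxcl10, Cxcl9 and Irf1 are among the genes that also stand in another of the lists above. Between the spleens 1 of 27 was called by edgeR and 2 by DESeq2, and edgeR called 3 with the side of the spleen libraries on the second principal component as a term. The gene called by edgeR was Irf8, which was at 462 CPM in healthy and 890 in tumour-bearing spleens (log2 0.95 ± 0.16, adjusted p = 0.0025, edgeR). The median log2 fold change of the 27 genes was 0.65 against tumour-bearing spleens and 0.14 between the spleens, where Ifng rose by 1.19.

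**Figure D4:**
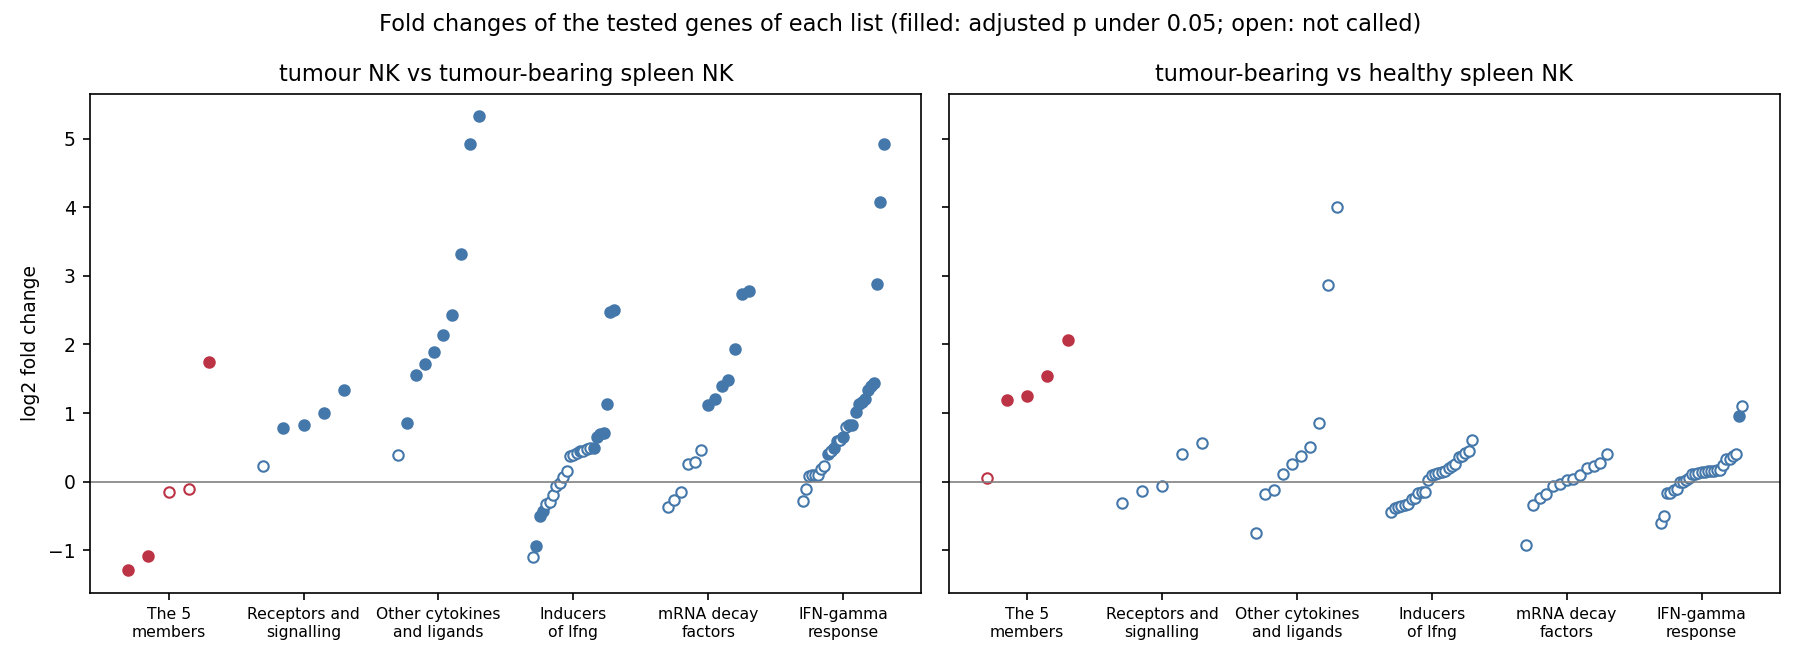
Log2 fold change of the 5 genes and of each tested gene of the 5 lists, for the tumour against tumour-bearing spleens (left) and tumour-bearing against healthy spleens (right), filled where the adjusted p was under 0.05. On the right 4 of the 5 genes are filled and 1 list gene is, and on the left the lists lie mostly above 0 while the 5 genes lie on both sides. List points at 4 or more belong to genes with few or no counts in a spleen group, Cxcl10 among them.

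Markers of other cell types were measured in the same libraries, and several moved with the members. Macrophages are a source of Ccl3, Ccl4, Cxcl2 and Cxcl10, and of their 14 markers 10 were listed. The summed level was 1034.5 to 1334.9 CPM in tumours, 1008.2 to 1370.3 in tumour-bearing spleens and 1138.8 to 1423.2 in healthy spleens, of which Ly6c2 and Itgam, which NK cells also express, made up most. Csf1r was at 0 in every spleen library and at 7.22 CPM at most in tumours, Lyz2 reached 4.63 CPM in spleens and 40.3 in tumours, and C1qa 0.76 and 23.5. Cd68 was at 4.62 to 13.2 CPM in healthy spleens, 10.7 to 21.0 in tumour-bearing spleens and 16.2 to 26.5 in tumours. Between the spleens its log2 difference was 0.62 ± 0.34 (adjusted p = 0.537, edgeR). The part of macrophages in the members' levels was not tested. Neutrophil markers (4 of 8 listed) summed to 11.2 CPM at most in spleens and to 60.8 to 158.0 in tumours, with Retnlg at 0 in all spleens.

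T cells express Ccl3, Ccl4, Ccl5, Xcl1 and Ifng too, and 4 of their 12 markers were listed (Cd3d, Cd3g, Cd4 and Cd28). Their summed level was 57.0 to 89.1 CPM in healthy spleens, 113.3 to 155.5 in tumour-bearing spleens and 91.3 to 164.1 in tumours. Cd3d rose with the 4 members in the spleen comparison (log2 1.47 ± 0.26, adjusted p = 0.00446, edgeR), from 38.0 CPM or less in healthy spleens to 57.5 or more in tumour-bearing ones, and NK cells can carry Cd3d and Cd3g transcripts as well. In tumours Cd3d was at 32.33 to 64.94 CPM. Cd3g was at 21.57 to 39.62, 40.75 to 53.53 and 22.25 to 48.37 CPM in healthy spleens, tumour-bearing spleens and tumours. Cd28 was at 15.24 CPM or less in spleens and at 22.95 to 75.16 in tumours. Of the 3 T cell markers tested, 1 was called higher and 1 lower in tumours against tumour-bearing spleens. Cd4 was at 3.75 CPM or less throughout. The carcinoma markers Epcam and Cdh1 (2 of 6 listed) summed to 27.7 to 54.9 CPM in tumours and 3.1 or less in spleens. The part of these cells in the members' levels was not tested.

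Between the spleens 2 further markers rose with the members. Itgax, from the dendritic cell list, was at 148 to 175 CPM in healthy and 240 to 320 in tumour-bearing spleens (log2 0.75 ± 0.15, adjusted p = 0.0113, edgeR), and Kit, from the mast cell list and the gene nearest to Xcl1, rose by 1.21 ± 0.23 (adjusted p = 0.00649, edgeR). The 2 of 6 dendritic markers listed summed to 149.5 to 177.4, 245.4 to 323.8 and 178.2 to 247.7 CPM in healthy spleens, tumour-bearing spleens and tumours, and the 2 of 5 mast cell and basophil markers to 12.3 to 15.5, 25.7 to 40.1 and 107.6 to 139.8. In tumours against tumour-bearing spleens Zbtb46 rose by 1.76, Cd74, from the B cell list, by 1.33 and Pecam1, which encodes the CD31 that the sort excluded, by 1.00, to 139 to 202 CPM. The part of these genes' source cells in the members' levels was not tested either.

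Gzmb, an NK marker that stimulated NK cells also raise, was at 357 to 543 CPM in healthy spleens, 1031 to 1181 in tumour-bearing spleens and 1931 to 2346 in tumours. Summed over the 11 listed NK markers the level was 29527.7 to 31810.9, 30088.7 to 33833.8 and 22897.0 to 29511.3 CPM in the same order, and Gzma made up more of it than any other marker. The tumours were lower in this sum than every spleen, but the highest tumour, at 29511.3, nearly reached the lowest healthy spleen, at 29527.7. Single markers differed in direction. Of 10 tested, 1 was called higher and 4 lower in tumours against tumour-bearing spleens, where 15.8% and 13.2% of all genes were. The part of NK cell content in the members' levels was not tested.

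In the sCAF table Ccl3 and Ccl4 were close to the limit of counting, and Ccl5 was above it. Ccl3 had 6, 4 and 7 counts in the 3 libraries, Ccl4 had 11, 3 and 5, and Ccl5 had 59, 14 and 11. On the library totals, without TMM scaling, Ccl5 was at 26.5 CPM in replicate 1 (95% exact Clopper-Pearson interval 20.1 to 34.1), 10.6 (5.81 to 17.8) in replicate 2 and 8.26 (4.12 to 14.8) in replicate 3, and the intervals cover counting error only. Replicate 1 was above the others. Of leukocyte genes, Ptprc, which encodes CD45, had 4, 0 and 2 counts, Cd3e had 3, 7 and 7 and Csf1r had 13, 6 and 11. Lyz2 had 43, 18 and 26 counts, or 19.3, 13.7 and 19.5 CPM. The part of leukocytes in the chemokine counts was not tested. Because these values come from a table of its own and from other cells, they were set beside the NK levels without a test.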

How the data were processed

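The values are whole-number raw counts per gene symbol, deposited by the authors as separate tables of NK (11 libraries) and sCAF (3 libraries). The submitters' processing notes name bcl2fastq, STAR 2.4.2a, HTSeq and the build mm10, while the annotation and any use of molecular identifiers are not given in the sources used here, so counts are not read as molecules. The lowest maximum of a gene over the NK libraries was 6 counts, and a gene not listed has no value. In its header spaces stand in place of a tab between 1 pair of names, and the names were read in order, 1 per value column.

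Genes were kept by filterByExpr (8471 of 10210), scaled by TMM and fitted in edgeR 4.0.16 (R 4.3.3) by 1 quasi-likelihood model of all 11 NK libraries with robust estimation and the group as the only term. P-values were adjusted by Benjamini-Hochberg over all 8471 genes and genes under 0.05 are called. A floor of 3 counts lay at 1.53 to 5.36 CPM in the NK libraries, for counting error only. The code was tested on simulated counts. The members and the gene lists were chosen with earlier results of these data known. Genes named from a list are those called, up to the 4 with the largest change in each direction. For each member the 3 genes nearest in profile are named. Jak1, Zfp36, Tnf, Ltb, Flt3l and the cell type markers were named after their values were seen. Alternatives were DESeq2 1.42.0, other scalings, no filter, the compared groups alone, the replicate number as a block, each library left out and a split of the spleen libraries. RefSeq promoter entries were found for 3 of the 5 members. Outlying libraries were looked for in the 10 groups of 4 values of a member, and 0 were found. Some genes of the lists are counted but not reported by name here.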

Additional observations from a re-analysis of the deposited data

How the results depend on the processing

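Every call of a member held under every alternative run, and the results that turned were differences that had no call. The log2 difference of Ccl5 between the spleens, 0.053, was -0.027 on library totals, -0.011 with the replicate block, -0.046 with healthy replicate 1 set apart by a term, and between -0.062 and 0.208 with each library left out in turn. That of Ifng between tumour and tumour-bearing spleen, -0.108, ranged from -0.242 to 0.05 with each left out, and that of Ccl3 between tumour and healthy spleen, -0.048, was 0.123 with healthy replicate 1 as the only healthy spleen. The causes were not tested.

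Numbers of called genes moved more. Tumour against tumour-bearing spleen had 2453, and 1478 with only the tumour-bearing spleens above 0 on the second principal component or 2781 with only those below it. Tumour against healthy spleen had 2582, and 1090 with healthy replicate 1 alone or 2891 with the other 2 healthy spleens. The spleen comparison had 134, from 42 to 128 with each library left out, and 733 with the side of 0 on that component as a term, an alternative chosen after seeing the data, in which all 4 called members kept their calls. With the replicate block the numbers were 2626, 2648 and 115. Whether replicate numbers pair tumours with tumour-bearing spleens cannot be decided from so few libraries. Deviations from the group means of same-numbered tumour and tumour-bearing spleen libraries correlated at -0.047, 0.288, 0.002 and 0.211 for numbers 1 to 4. Those with different numbers correlated between -0.252 and 0.158. Same-numbered healthy and tumour-bearing spleens, which cannot share a mouse, correlated between -0.353 (number 2) and 0.501 (number 1). For tumour against tumour-bearing spleens the side that held only healthy replicate 1 could not be fitted. Of the lists, decay factors numbered 7 higher under every alternative against tumour-bearing spleens, and interferon gamma response genes 14 to 17. Against healthy spleens the decay factors were less stable, with 6 higher in the main fit and 8 without healthy replicate 1. In that comparison 1 was called lower with upper-quartile scaling and 2 on library totals. Depth limits chiefly the sCAF counts of Ccl3 and Ccl4 and the list genes near a count of 0.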
